A study of Mus musculus with 18 samples.

Results

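The genes described are the carnitine acyltransferases Cpt1a, Cpt1b, Cpt1c, Cpt2, Crat and Crot, together with the choline kinases Chka and Chkb, which were chosen by family and because Chkb lies next to Cpt1b in the genome. They are 8 of the 52093 gene symbols in the files, and each was to be taken from its row with the highest mean RPKM (reads scaled to transcript length in kb and to library size) over 18 samples. Each of the 8 has 1 row only, so the level decided nothing, and the mean RPKM over all samples was lowest for Cpt1c (0.180) and highest for Cpt2 (82.1). RNA was sequenced from adipocytes of inguinal white adipose tissue (iWAT), adipocytes of epididymal white adipose tissue (eWAT) and brown adipose tissue (BAT), with 6 samples per tissue. All samples came from wild-type male C57BL/6 mice that were 16 weeks old and were fed a high-fat diet (HFD) over 12 of these weeks. The substrain is C57BL/6J in the labels and C57BL/6NTac in the notes of the study, and a label field naming regular chow goes against the titles and the protocol. White adipocytes were the floating cells after collagenase digestion, whereas BAT was frozen whole. Preparation, sequencing lane (lanes 1 and 2 for white depots, lanes 3 and 4 for BAT by the lane codes in the labels) and tissue therefore cannot be told apart in any comparison with BAT.

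Long-chain fatty acids enter mitochondria as carnitine esters. CPT1 on the outer mitochondrial membrane makes the acylcarnitine and is inhibited by malonyl-CoA, the translocase SLC25A20 carries it across the inner membrane, and CPT2 returns the acyl group to CoA inside. CPT1A is known as the isoform of liver, CPT1B as that of muscle and brown fat, and CPT1C as a neuronal isoform of the endoplasmic reticulum. CRAT handles acetyl and other short chains, and CROT handles medium chains in peroxisomes. CHKA and CHKB phosphorylate choline, the first step of phosphatidylcholine synthesis.

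Reads on the counted rows numbered 26768529 to 30166441 per sample in iWAT, 24655056 to 37438994 in eWAT and 27402247 to 42518483 in BAT. Brown adipocyte markers (6 genes, Ucp1 and Cidea among them) summed to 2936 to 4300 RPKM in BAT, 31.9 to 50.3 RPKM in iWAT and 6.60 to 17.9 RPKM in eWAT. Adipocyte markers (5 genes, Adipoq and Plin1 among them) were detected in all samples and had summed medians of 13972 RPKM in iWAT, 5537 RPKM in eWAT and 5620 RPKM in BAT. All 5 were higher in iWAT than in eWAT, with a median log2 fold change of 1.38, and so were all 5 endothelial markers (median 1.63). Brown adipocyte markers were higher in iWAT for 5 of 6 (median 1.53). Of 8 skeletal muscle markers 4 could be tested there, and all 4 were higher in iWAT (median 4.21). The part of these markers' cells in any difference between iWAT and eWAT given here, those of Cpt1b, Cpt2, Crat, Crot and the lists included, was not tested. Macrophage markers (6 genes) summed to medians of 225 RPKM in iWAT, 944 RPKM in eWAT and 9.13 RPKM in BAT, and all 6 were higher in eWAT than in iWAT and lowest in BAT. Skeletal muscle markers (8 genes) had medians of 13.2, 3.15 and 74.9 RPKM, and all 8 passed the test as higher in BAT against both iWAT and eWAT. The BAT sample with the highest muscle markers (number 5, 119 RPKM) had the lowest brown markers (2936 RPKM). Reads on rows of the mitochondrial chromosome, as a percent of the library total used for RPKM, came to 2.27% to 7.03% in the white samples and 18.1% to 24.6% in BAT. Differences between tissues were tested with edgeR, which scales the libraries by TMM (trimmed mean of M values) so that most genes centre on no change. Without that scaling, the median of all genes moved from 0.01 to 0.87 for iWAT over BAT and from -0.02 to 0.89 for eWAT over BAT on the log2 scale. A direction against BAT is therefore relative to this centre, and RPKM ratios, which carry no TMM scaling, differ from the edgeR fold changes. In bulk RNA, fewer cells of a type and less RNA per cell cannot be told apart.

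Against BAT, the members changed by large amounts and in opposite directions. Cpt1b, Cpt2, Crat and Chkb were higher in BAT, whereas Cpt1a and Chka were higher in both white depots. In iWAT over BAT, 7 of 8 members passed an adjusted p of 0.05, 2 higher in iWAT and 5 higher in BAT. Of all genes tested 75.3% passed, 38.1% as higher in iWAT and 37.2% as higher in BAT. In eWAT over BAT, all 8 passed, 2 higher in eWAT and 6 higher in BAT, where 82.5% of all genes passed, 41.1% as higher in eWAT and 41.4% as higher in BAT. These counts include Crot and, in eWAT over BAT, Cpt1c, whose sign turned without TMM scaling. Between the white depots, 7 passed, 5 higher in iWAT and 2 higher in eWAT, where 68.6% of all genes passed, 34.1% as higher in iWAT and 34.5% as higher in eWAT. The 7 include the Chkb row, which holds the Cpt1b row. With the Cpt1b reads subtracted from it, 6 passed, 4 higher in iWAT and 2 higher in eWAT. The counts are thus near the background of each comparison, and the sizes differ more. The members were chosen with earlier results of these data known, so their sizes beside all genes are a description and not a test. The median absolute log2 fold change of the members was 2.18 for iWAT over BAT and 2.66 for eWAT over BAT, beside 0.69 and 0.97 over all genes tested. Between iWAT and eWAT it was 0.50, beside 0.47 over all genes tested. The RPKM of the samples did not overlap for 5, 6 and 6 of the 8 members in iWAT against eWAT, iWAT against BAT and eWAT against BAT, where this held for 44.0%, 65.3% and 68.4% of all genes tested. For iWAT against eWAT the 5 include the Chkb row, whose RPKM overlapped once the Cpt1b reads were subtracted.

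**Figure D1:**
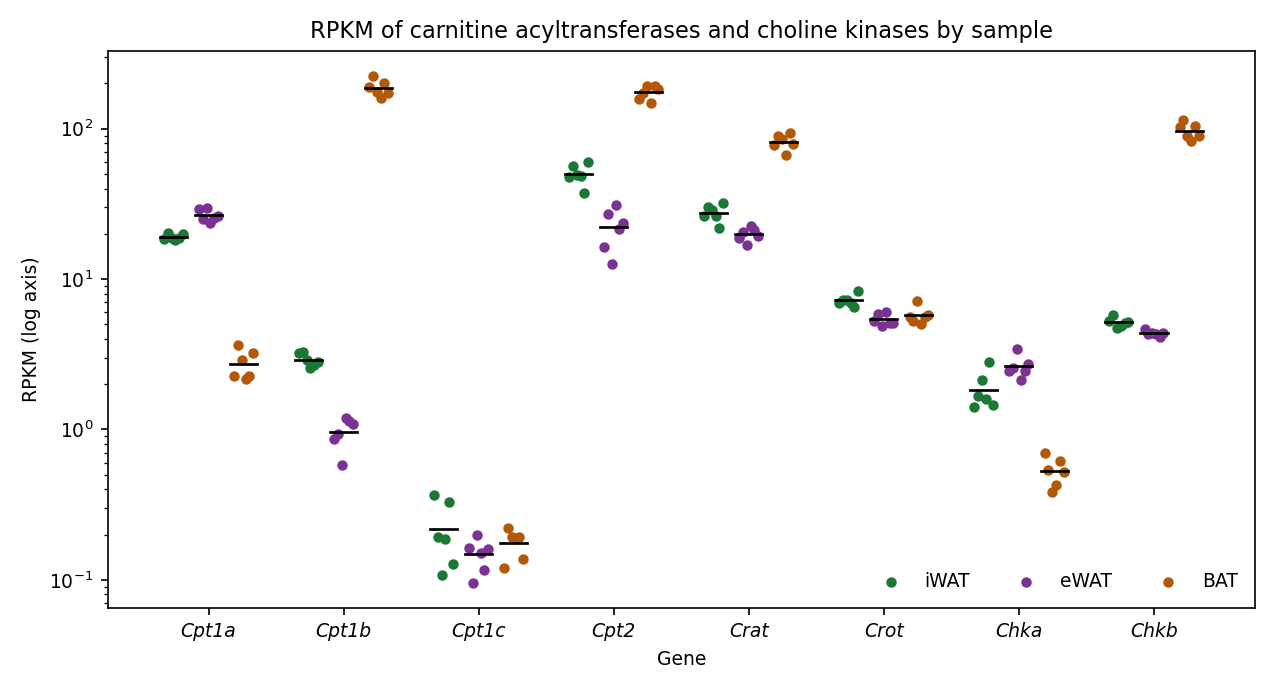
RPKM of the 8 genes in each sample on a log axis, coloured by tissue, with the mean of 6 samples as a black line. Cpt1b spans from 0.581 RPKM in an eWAT sample to 224 RPKM in a BAT sample, while Cpt1a runs the other way, from 29.6 RPKM in eWAT down to 2.17 RPKM in BAT.

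Cpt1a, the isoform known from liver, was the main CPT1 transcript of both white depots. Its RPKM ran from 18.1 to 20.3 in iWAT (median 18.8), from 23.7 to 29.6 in eWAT (median 25.9) and from 2.17 to 3.64 in BAT (median 2.58). No BAT sample came near a white sample, and the ranges of iWAT and eWAT did not overlap. In BAT, Cpt1a was lower than in iWAT by a log2 fold change of 2.19 ± 0.12 (SE, adjusted p = 1.4e-10) and lower than in eWAT by 2.69 ± 0.13 (SE, adjusted p = 2.6e-11). Its level in eWAT exceeded that in iWAT 1.38-fold (log2 fold change -0.47 ± 0.07 for iWAT over eWAT, adjusted p = 7.1e-05). Among the eWAT samples, the highest Cpt1a values, 29.6 RPKM in number 3 and 29.2 RPKM in number 1, stood in those with the highest summed macrophage markers, 1223 and 1164 RPKM. Across the 6 eWAT samples, log2 Cpt1a and log2 macrophage markers gave Pearson's r = 0.947 (exact permutation p = 0.013, adjusted p = 0.056 over 9 relations) and Spearman's rho = 0.886 (exact p = 0.033, adjusted p = 0.075). With the 2 samples of most extreme marker level left out, r was 0.624. The relation did not pass the adjusted threshold, and r was -0.621 in iWAT and 0.782 in BAT, where neither passed. The part of macrophages in the Cpt1a difference between the depots was not tested.

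Cpt1b, the muscle and brown fat isoform, showed the reverse pattern and the widest range of the 8 genes. It reached 159 to 224 RPKM in BAT (median 183). In iWAT it lay between 2.57 and 3.26 RPKM (median 2.84), from 231 to 276 reads per sample. In eWAT it lay between 0.581 and 1.20 RPKM (median 1.01), from 50 to 105 reads. The tissues formed 3 separate ranges. The log2 fold change was -6.61 ± 0.11 for iWAT over BAT (SE, adjusted p = 4.5e-15), which is a 97.6-fold difference with a 95% interval of 84.1 to 113. For eWAT over BAT it was -8.18 ± 0.18 (SE, adjusted p = 3.5e-14), or 290-fold with an interval of 228 to 370. These fold changes ranked 57 of 19745 genes and 46 of 20076 genes toward BAT. Cpt1b was also 3.03-fold higher in iWAT than in eWAT (log2 fold change 1.60 ± 0.15, adjusted p = 1.7e-06), and with lane as a covariate the log2 value was 1.61 (adjusted p = 8.2e-06).

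Skeletal muscle is known to express Cpt1b, and its level was set beside the muscle markers. The BAT sample with the lowest summed muscle markers (number 2, 1.67 RPKM) had the highest Cpt1b, 224 RPKM. The BAT sample with the highest (number 5, 119 RPKM) had 176 RPKM. The part of muscle cells in the Cpt1b level of BAT was not tested. Over the 6 BAT samples, r was -0.855 (exact permutation p = 0.019, adjusted p = 0.058) and rho was -0.543 (exact p = 0.297, adjusted p = 0.446). On TMM-scaled values r was -0.615, and without the 2 farthest samples it was 0.290, so the negative sign rests on those samples. In eWAT, r was 0.848 (adjusted p = 0.059) and fell to 0.231 without the 2 farthest samples, and in iWAT it was 0.316 (adjusted p = 0.542). No relation of Cpt1b with muscle markers passed the adjusted threshold.

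Cpt1c was low in all 3 tissues. Its RPKM ran from 0.107 to 0.366 in iWAT, from 0.0959 to 0.200 in eWAT and from 0.120 to 0.220 in BAT, and all ranges overlapped. The log2 fold change was 0.56 ± 0.29 for iWAT over eWAT (adjusted p = 0.104) with a 95% interval of -0.01 to 1.12. It was -0.31 ± 0.28 for iWAT over BAT (adjusted p = 0.329). The value for eWAT over BAT, -0.83 ± 0.22 (adjusted p = 0.0024), turned to 0.08 without TMM scaling.

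Taking the CPT1 isoforms per sample and per length, Cpt1b held 98.1% to 98.8% of the summed Cpt1a, Cpt1b and Cpt1c RPKM in BAT. It held 12.3% to 14.6% in iWAT and 1.91% to 4.78% in eWAT. A share of this kind does not depend on the library total. The means were 13.1% ± 0.924 (SD, n = 6) in iWAT, 3.55% ± 1.03 in eWAT and 98.5% ± 0.279 in BAT. All pairs of tissues differed by the exact permutation test of the means, two-sided, with p = 0.0022 (adjusted p = 0.0024 over 9 tests), the smallest p that 6 against 6 samples allow. The isoform shares of the 3 tissues did not overlap.

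**Figure D2:**
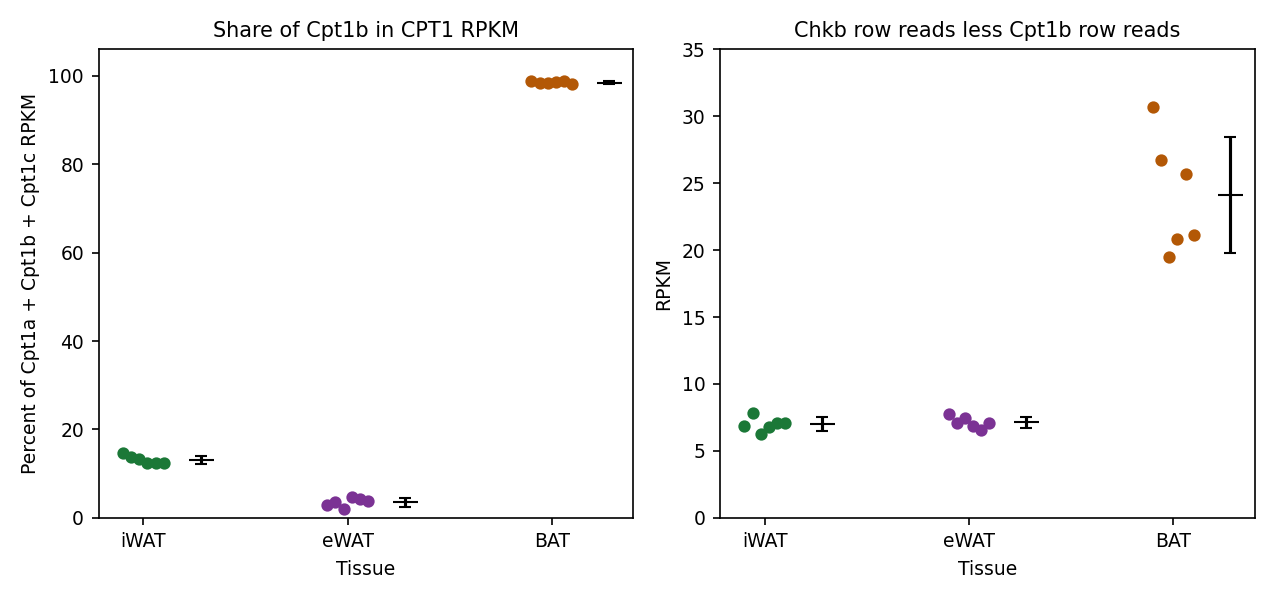
Left, Cpt1b RPKM as a percent of the summed RPKM of Cpt1a, Cpt1b and Cpt1c in each sample; right, RPKM of the Chkb row after the reads of the Cpt1b row were subtracted. Points are samples, and the mark beside them is the mean ± SD of 6 samples. The BAT samples lie between 98.1% and 98.8% on the left and between 19.5 and 30.7 RPKM on the right, apart from both white depots.

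Cpt2, which completes the transfer inside mitochondria, followed Cpt1b in direction but not in size. It ran from 148 to 192 RPKM in BAT (median 179), from 37.6 to 59.8 RPKM in iWAT (median 48.8) and from 12.6 to 31.2 RPKM in eWAT (median 22.6). The 3 ranges did not overlap. The log2 fold change was -2.41 ± 0.13 for iWAT over BAT (adjusted p = 1.2e-10), -3.57 ± 0.19 for eWAT over BAT (adjusted p = 1.3e-10) and 1.19 ± 0.20 for iWAT over eWAT (adjusted p = 1.9e-04). Cpt2 varied most in eWAT, with a coefficient of variation of 31.0%, beside 15.6% in iWAT and 10.3% in BAT. Its lowest eWAT values, 12.6 and 16.3 RPKM, were those of numbers 3 and 1, the samples with the most macrophage marker RNA. In these samples Cpt1a was at its highest for eWAT, so that the genes ordered the eWAT samples differently.

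Crat, the short-chain enzyme, was also higher in BAT. Its RPKM was 67.1 to 93.0 in BAT (median 81.9), 21.7 to 31.9 in iWAT (median 27.5) and 16.9 to 22.4 in eWAT (median 20.1). BAT stood apart from both white depots, whereas the lowest iWAT sample lay within the eWAT range. The log2 fold change was -2.17 ± 0.11 for iWAT over BAT (adjusted p = 1.0e-10) and -2.63 ± 0.09 for eWAT over BAT (adjusted p = 1.4e-12). Crat was 1.40-fold higher in iWAT than in eWAT (log2 fold change 0.48 ± 0.11, adjusted p = 0.0017).

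Crot, the peroxisomal medium-chain enzyme, differed little between tissues. It ran from 6.52 to 8.37 RPKM in iWAT (median 7.08), from 4.90 to 6.07 RPKM in eWAT (median 5.20) and from 4.99 to 7.16 RPKM in BAT (median 5.58). Only the white depots did not overlap, and Crot was 1.35-fold higher in iWAT than in eWAT (log2 fold change 0.43 ± 0.08, adjusted p = 5.6e-04). Its place against BAT hung on the scaling. The log2 fold change with TMM was -0.28 ± 0.10 for iWAT over BAT (adjusted p = 0.025) and -0.68 ± 0.10 for eWAT over BAT (adjusted p = 1.1e-05), and without TMM it was 0.58 and 0.24. For iWAT over BAT, the adjusted p of Crot also rose above 0.05 when certain single samples were left out. This held for BAT number 5 (-0.19, adjusted p = 0.055) and for iWAT numbers 1, 4 and 5 (-0.25, -0.27 and -0.23, adjusted p from 0.055 to 0.065). No direction against BAT is given for Crot.

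The choline kinases moved in opposite directions as counted. Chka lay between 1.42 and 2.79 RPKM in iWAT (median 1.62), between 2.13 and 3.43 RPKM in eWAT (median 2.52) and between 0.385 and 0.696 RPKM in BAT (median 0.533). BAT stood below both white depots, by a log2 fold change of 1.18 ± 0.16 against iWAT (adjusted p = 7.0e-06) and of 1.72 ± 0.13 against eWAT (adjusted p = 5.8e-09). The white depots overlapped, and iWAT was lower than eWAT (log2 fold change -0.51 ± 0.16, adjusted p = 0.011). The Chkb row, in contrast, was at 82.5 to 115 RPKM in BAT (median 95.7), 4.76 to 5.79 RPKM in iWAT (median 5.15) and 4.12 to 4.67 RPKM in eWAT (median 4.36). Its log2 fold change was -4.84 ± 0.10 for iWAT over BAT (adjusted p = 1.3e-14), -5.06 ± 0.09 for eWAT over BAT (adjusted p = 1.2e-14) and 0.25 ± 0.06 for iWAT over eWAT (adjusted p = 0.0030). These values cannot be read without the position of the row.

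**Figure D3:**
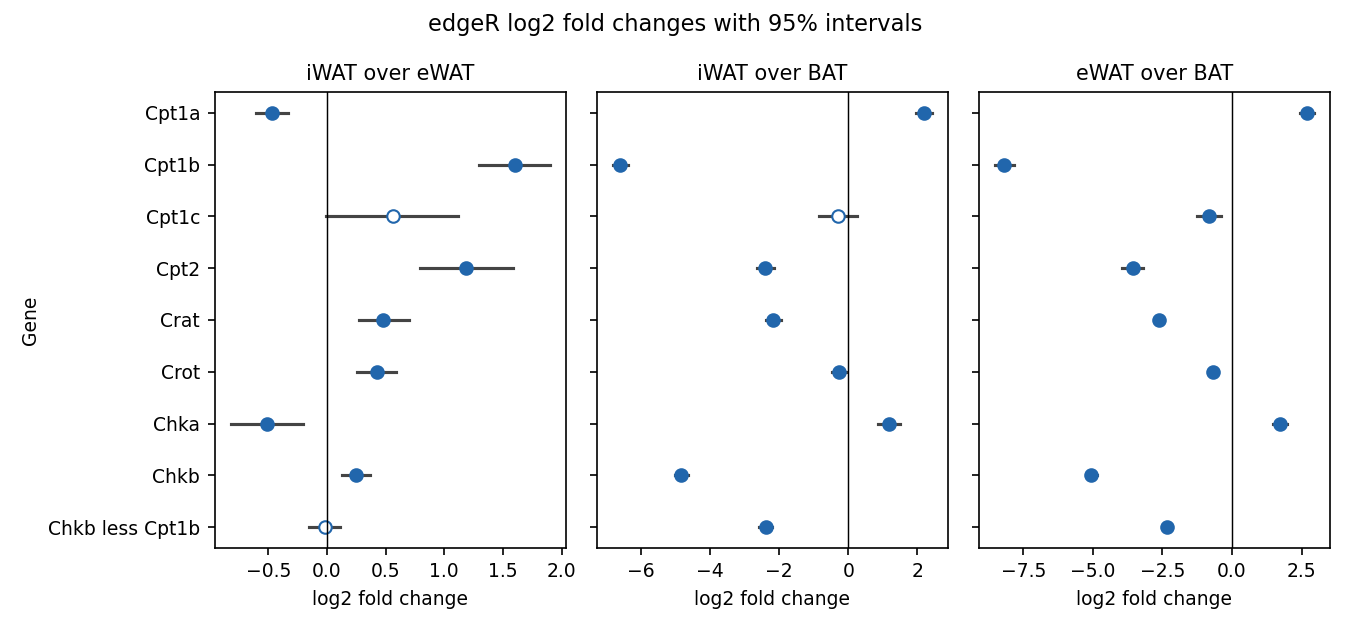
edgeR log2 fold changes with 95% intervals for the 8 genes and for the Chkb row after the Cpt1b reads were subtracted; filled points passed an adjusted p of 0.05 and open points did not, and each panel has its own axis. Cpt1b reaches -6.61 and -8.18 against BAT, and the value for Chkb shrinks from -4.84 to -2.39 and from -5.06 to -2.34 after the subtraction.

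On mm9, the Chkb row (Entrez gene 12651) covers chr15:89246836-89260358 on the minus strand, and the Cpt1b row (Entrez gene 12895) covers chr15:89246836-89256294 on the same strand. The Cpt1b row lies wholly within the Chkb row, and both end at the same base. Another row, named BC090627, has the same extent as Chkb. The rows have transcript lengths of 6463 bases for Chkb (23 exons), 2895 bases for Cpt1b (19 exons) and 4527 bases for BC090627 (27 exons). The files do not list the exons behind a row. In GENCODE vM1, which uses the same genome build, 10 transcripts are annotated to Chkb, of which 1 is a readthrough transcript that runs on into Cpt1b and has 27 exons and 4296 bases. It shares 17 identical exons with Cpt1b-001. Of the 2895 exonic bases of Cpt1b-001, 2744 (94.8%) are also in an exon annotated to Chkb. The transcript Chkb-001, with 11 exons and 1707 bases, shares 0 bases with Cpt1b-001 and ends 503 bases before it.

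**Figure D4:**
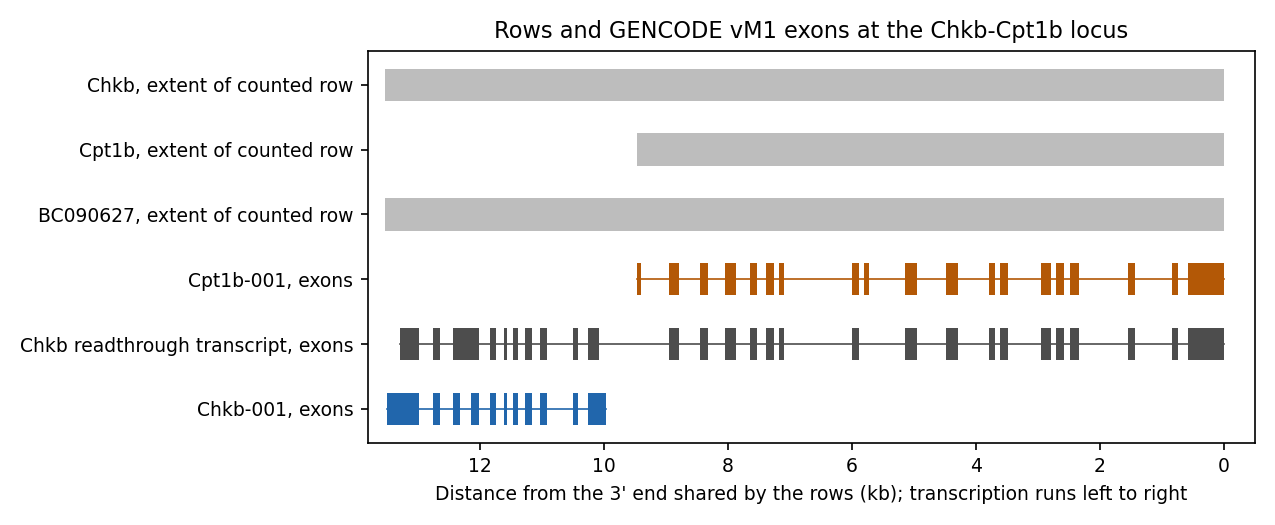
Extent of the 3 counted rows (grey) and exons of Cpt1b-001, the readthrough transcript and Chkb-001 in GENCODE vM1, by distance in kb from the 3′ end shared by the rows, with transcription from left to right. The Cpt1b row lies inside the Chkb row, and the exons of Chkb-001 lie outside it.

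The following coding exons show what a read can and cannot tell at this locus. Both are from the NCBIM37 (mm9) genome, minus strand, in lower case throughout, and each is the longest wholly coding exon of its kind. The first, exon 10 of Cpt1b-001 (chr15:89251776-89251971, 196 bases), is also an exon of the Chkb readthrough transcript, so that a read from it fits both genes. The second, exon 4 of Chkb-001 (chr15:89258842-89258975, 134 bases), lies outside Cpt1b and is labelled Chkb only for that reason. It also lies within an exon of the readthrough transcript, so that a read from it does not tell Chkb-001 from the readthrough.
Cpt1b exon 10, shared: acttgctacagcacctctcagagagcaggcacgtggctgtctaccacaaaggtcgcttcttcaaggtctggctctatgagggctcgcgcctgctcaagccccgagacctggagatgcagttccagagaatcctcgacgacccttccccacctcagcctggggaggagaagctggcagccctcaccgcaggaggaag
Chkb exon 4, Chkb only: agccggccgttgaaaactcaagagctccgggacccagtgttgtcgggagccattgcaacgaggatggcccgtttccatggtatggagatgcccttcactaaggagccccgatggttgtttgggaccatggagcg

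The counts carry the overlap. The reads on the Cpt1b row amounted to 83.4% to 88.0% of the reads on the Chkb row in BAT, 23.6% to 27.6% in iWAT and 5.95% to 12.4% in eWAT. For each row the files also give a value of its highest exon, normalised by the authors. This value was identical in the Chkb and Cpt1b rows in 6 of 6 BAT samples (between 0.88976 and 1.12341) and in 0 of 6 samples of iWAT and of eWAT. The BC090627 row had that same value in all BAT samples. Within BAT, log2 Chkb and log2 Cpt1b gave r = 0.988 (exact permutation p = 0.0014, adjusted p = 0.013) and rho = 1 (exact p = 0.0028, adjusted p = 0.025), with r = 0.968 without the 2 farthest samples. As the Chkb row holds the Cpt1b row, this is a whole against its part. It was 0.706 in iWAT (adjusted p = 0.156) and -0.345 in eWAT (adjusted p = 0.522).

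**Figure D5:**
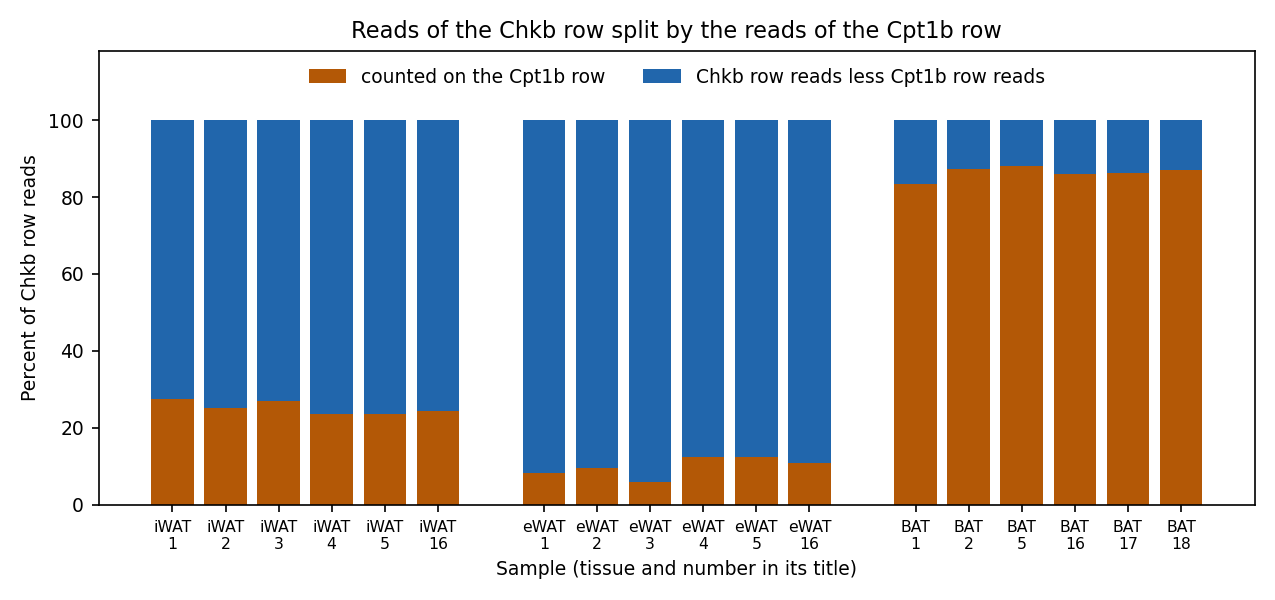
Reads of the Chkb row in each sample, split into a share equal to the reads on the Cpt1b row and the remainder; samples are named by tissue and the number in their title. The Cpt1b share is 83.4% to 88.0% in BAT and at most 27.6% in any white sample.

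To ask what is left of Chkb, the Cpt1b reads were subtracted from the Chkb reads in each sample, on the premise that every Cpt1b read was also counted on the Chkb row. This measure and those derived from it were added after the data were seen. The remainder was 1701 to 3680 reads in BAT, 682 to 786 in iWAT and 652 to 1138 in eWAT. Over the 3568 bases by which the row lengths differ, it came to 19.5 to 30.7 RPKM in BAT (median 23.4), 6.29 to 7.84 RPKM in iWAT (median 6.97) and 6.53 to 7.75 RPKM in eWAT (median 7.10). BAT was above both white depots in every sample, and the white depots overlapped. Refitted in edgeR, the log2 fold change was -2.39 ± 0.10 for iWAT over BAT (adjusted p = 9.0e-12) and -2.34 ± 0.09 for eWAT over BAT (adjusted p = 4.9e-12). This is a 5.23-fold and a 5.06-fold difference, where the whole row gave 28.5-fold and 33.3-fold. The remainder kept its direction without TMM scaling, at -1.54 and -1.43.

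Between the white depots, the small difference of the Chkb row did not outlast the subtraction. The log2 fold change for iWAT over eWAT went from 0.25 to -0.02 ± 0.07 (adjusted p = 0.792), with a 95% interval of -0.15 to 0.11. Cpt1b itself was 3.03-fold higher in iWAT. Leaving out each sample in turn kept the value between -0.07 and 0.02. If only the 94.8% of bases shared in GENCODE were subtracted, it was 0.00 (adjusted p = 0.955), and the values against BAT were -2.77 and -2.74.

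Other subtractions gave the same order of tissues. BC090627 less Cpt1b, over 1632 bases, gave means of 10.4 RPKM in iWAT, 10.5 RPKM in eWAT and 22.2 RPKM in BAT. Chkb less BC090627 gave 4.11, 4.29 and 25.7 RPKM. Reads from Cpt1b introns, from the readthrough transcript and from Chkb proper cannot be told apart in any of these remainders. The row C730034F03Rik, which overlaps the 5′ end of the Chkb row on the opposite strand, was also higher in BAT (log2 fold change -2.13 ± 0.17 for iWAT over BAT, adjusted p = 1.1e-08), at 2.66 RPKM in BAT and 0.922 RPKM in iWAT, and since the use of strand in counting is not stated its reads and those of Chkb cannot be told apart where they overlap.

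The balance of the choline kinases shifted less after the subtraction, but kept its order. Chkb held 99.3% to 99.6% of choline kinase RPKM in BAT, 64.8% to 78.6% in iWAT and 56.1% to 67.1% in eWAT. With the remainder in place of the row, it held 97.6% to 98.1%, 71.8% to 83.0% and 68.5% to 76.4%. For the row, iWAT and eWAT differed by 11.3 percentage points (exact permutation p = 0.0065, adjusted p = 0.0065), and with the remainder by 6.11 points (exact permutation p = 0.032, not adjusted). For the row, both differed from BAT with an exact permutation p = 0.0022 (adjusted p = 0.0024). The log2 ratio of Chkb to Cpt1b RPKM had means of 0.83 ± 0.10 in iWAT, 2.22 ± 0.41 in eWAT and -0.95 ± 0.03 in BAT (SD, n = 6), and all pairs differed (exact permutation p = 0.0022, adjusted p = 0.0024). This ratio sets a row against a part of itself. With the remainder in place of the row, the means were 1.27, 2.92 and -2.97, and the differences from BAT moved from 1.78 to 4.23 for iWAT and from 3.16 to 5.89 for eWAT. The ratio with the row varied least in BAT, where Cpt1b reads equal most of the Chkb reads. With the remainder the SD was 0.13 in iWAT, 0.45 in eWAT and 0.19 in BAT.

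The rows around the locus changed less than Cpt1b. Of 16 other rows within 50 kb, BC090627 apart, 12 could be tested for iWAT over BAT and 11 for eWAT over BAT. BAT was higher for 10 and 9 of them, where 37.2% and 41.4% of all genes tested were, and a white depot for 0, with medians of -0.97 and -0.72 on the log2 scale. Without TMM scaling, BAT was higher for 4 and 3 and the white depot for 4 and 3, so that these rows have no common direction across scalings. BC090627 itself, which holds Cpt1b, was at -5.11 ± 0.10 for iWAT over BAT, and the other rows reached at most -2.13 there and -3.44 for eWAT over BAT (LOC100502740). Sco2, a factor of cytochrome oxidase assembly, was at -0.96 ± 0.08 and Tymp, thymidine phosphorylase, at -0.93 ± 0.08, and these rows overlap each other. Arsa, a lysosomal sulfatase, was at -0.32 ± 0.09 and Ncaph2, a condensin subunit, at -0.25 ± 0.06. The rows AK131893 (-1.43), 4930423K06Rik (-1.39), LOC100502740 (-1.91) and C230037L18Rik (-1.76) also passed, at under 1.5 RPKM in every tissue. Tymp/Sco2 (-0.98) combines its namesakes. AK002952 (-0.15) and Odf3b (-0.07) did not pass, and Klhdc7b, 1700007E06Rik, ENSMUSG00000090413 and Mapk8ip2 had at most 9 reads in any sample. Without TMM scaling the centre of all genes moves by about the size of the smaller values here, so that the lower of them carry no direction.

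Rows of other symbols overlap the remaining members too, at lower read counts. Cpt1a overlaps AK052893, 4833417J20Rik and Mtl5, which had at most 73 reads in a sample. Cpt1c overlaps 6530437J22Rik with at most 6 reads, Cpt2 overlaps AK136345 with at most 19 and Chka overlaps ENSMUSG00000082848 with at most 15. Crat overlaps Dolpp1 (121 to 777 reads) and ENSMUSG00000087435 (14 to 332 reads), and Crot overlaps ENSMUSG00000078183 (68 to 311 reads), all on the opposite strand. For these pairs the reads in the overlap cannot be told apart.

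The carnitine system around CPT1 was described by lists chosen with earlier results known. Of 9 genes of carnitine transport and synthesis, 8 are in the files and 7 were tested. Slc25a20, the translocase between CPT1 and CPT2, was at 75.0 ± 6.19 RPKM in BAT, 14.7 ± 1.91 RPKM in iWAT and 9.22 RPKM in eWAT (SD, n = 6). It was higher in BAT by log2 fold changes of 2.96 ± 0.11 (adjusted p = 3.4e-12) and 3.61 ± 0.10 (adjusted p = 1.9e-13). Slc22a4, a plasma membrane transporter of carnitine and ergothioneine, ran the other way, at 0.592 ± 0.197 RPKM in BAT, 10.8 ± 1.71 RPKM in iWAT and 6.89 ± 1.08 RPKM in eWAT, with log2 fold changes of 3.60 ± 0.19 and 2.96 ± 0.18 over BAT. The main carnitine importer, Slc22a5, was at 12.1 RPKM in BAT and at 7.66 and 5.83 RPKM in the white depots. Slc16a9, a carnitine exporter, was at 0.166 RPKM in BAT and 0.919 RPKM in iWAT. Over the list, 4 genes were higher in BAT and 3 in iWAT, beside 37.2% and 38.1% of all genes tested. Against eWAT, 3 were higher in BAT and 4 in eWAT, beside 41.4% and 41.1% of all genes tested. Without TMM scaling these became 2 and 4, and 3 and 4. Between the white depots, 4 were higher in iWAT, with Slc25a29, a mitochondrial carrier of basic amino acids, leading at 1.21 ± 0.18. In eWAT 1 was higher, Aldh9a1 of carnitine synthesis (24.9 RPKM in iWAT and 41.7 RPKM in eWAT, log2 fold change -0.74 ± 0.10). Of all genes tested there, 34.1% were higher in iWAT and 34.5% in eWAT. Bbox1, the last enzyme of carnitine synthesis, had at most 2 reads in any sample.

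Another list held genes that set malonyl-CoA, the inhibitor of CPT1. Of 9, 8 were higher in BAT than in iWAT and 8 higher than in eWAT, where 37.2% and 41.4% of all genes tested were, with medians of -1.25 and -1.66 beside 0.01 and -0.02 for all genes tested. Without TMM scaling, 5 and 6 were higher in BAT and 3 and 2 in the white depot. Acacb, the acetyl-CoA carboxylase of the mitochondrial surface, was at 54.3 ± 11.8 RPKM in BAT, 3.10 ± 0.568 RPKM in iWAT and 1.69 ± 0.649 RPKM in eWAT, which gave log2 fold changes of -4.73 ± 0.17 and -5.59 ± 0.29. Acaca, the cytosolic carboxylase, was at 99.0 ± 26.2, 10.3 ± 1.77 and 6.17 ± 1.96 RPKM. Mlycd, which breaks malonyl-CoA down, was likewise higher in BAT (log2 fold change -2.23 ± 0.12 for iWAT over BAT, adjusted p = 1.6e-10), so that enzymes of synthesis and of breakdown were high together. In iWAT over eWAT, 7 of 9 were higher in iWAT and 0 in eWAT, where 34.1% and 34.5% of all genes tested were. Prkaa2, a catalytic subunit of AMP-activated kinase, led them (log2 fold change 1.42 ± 0.27, adjusted p = 3.8e-04). Without TMM scaling, 6 of the 9 were higher in iWAT and 0 in eWAT. The median log2 fold change of the list was 0.57, beside 1.38 for the adipocyte markers.

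Among 10 nuclear regulators of CPT1 genes, 6 were higher in BAT than in iWAT, where 37.2% of all genes tested were. Against eWAT, 7 were higher in BAT, beside 41.4% of all genes tested. The regulators lower in BAT numbered 2 and 3, beside 38.1% and 41.1% of all genes tested. Without TMM scaling, 4 and 5 were higher in BAT and 5 and 5 lower. Ppara, the fatty acid receptor of oxidative tissues, was at 42.7 ± 8.82 RPKM in BAT, 1.14 ± 0.177 RPKM in iWAT and 0.399 ± 0.168 RPKM in eWAT, with log2 fold changes of -5.83 ± 0.16 (adjusted p = 2.6e-13) and -7.33 ± 0.31 (adjusted p = 8.3e-12). The coactivators Ppargc1a (-3.62 ± 0.16 for iWAT over BAT) and Ppargc1b (-4.60 ± 0.15) followed. Pparg, the adipocyte receptor, was at 86.2 ± 10.4 RPKM in BAT and 89.8 ± 5.93 RPKM in iWAT. RPKM carries no TMM scaling, which moves values toward BAT, so no direction between BAT and iWAT is given for Pparg. It was lower in eWAT than in iWAT (41.5 ± 7.90 RPKM, log2 fold change 1.12 ± 0.13 for iWAT over eWAT).

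Acyl-CoA synthetases, which make the substrate of CPT1, divided by gene. Of 5 tested, 2 were higher in BAT and 1 in iWAT, beside 37.2% and 38.1% of all genes tested. Against eWAT, 3 were higher in BAT and 2 in eWAT, beside 41.4% and 41.1% of all genes tested. Without TMM scaling the first of these became 2 in BAT and 3 in iWAT, and the counts against eWAT stayed at 3 and 2. Acsl1, the main adipocyte synthetase, was at 186 ± 35.7 RPKM in iWAT, 68.7 ± 28.8 RPKM in eWAT and 148 ± 31.4 RPKM in BAT. Acsl4 was higher in both white depots (log2 fold changes 1.02 ± 0.08 and 1.77 ± 0.08 over BAT) and was higher in eWAT than in iWAT. Acsf2 was higher in BAT (-1.28 ± 0.11 and -2.19 ± 0.15), and Acsl5 was at 22.9 ± 8.73 RPKM in BAT and 9.03 ± 0.628 RPKM in iWAT.

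Peroxisomal genes that supply Crat and Crot were higher in iWAT than in eWAT for 7 of 9, where 34.1% of all genes tested were. Their median log2 fold change was 0.60, beside 1.38 for the adipocyte markers. The transporter Abcd2 was at 91.8 ± 15.8 RPKM in iWAT and 35.9 ± 13.6 RPKM in eWAT (log2 fold change 1.36 ± 0.25, adjusted p = 3.4e-04), and Scp2, a sterol carrier with thiolase activity, rose by 1.04 ± 0.18. Against BAT the count hung on the scaling. With TMM, 5 and 6 were higher in BAT and 2 and 1 in the white depots, and without it 1 and 3 against 7 and 4. Of all genes tested with TMM, 37.2% and 41.4% were higher in BAT and 38.1% and 41.1% in the white depots. Abcd3, another transporter of this family, was higher in BAT in both comparisons (-1.91 ± 0.14 and -2.37 ± 0.12). With TMM, the bifunctional enzyme Hsd17b4 was also higher in BAT (-1.25 ± 0.13 for eWAT over BAT). Abcd2 was higher in iWAT than in BAT (1.10 ± 0.14). The thioesterase Acot8 was at -0.89 ± 0.10 for iWAT over BAT. Without TMM scaling the centre of all genes moves by about this size, from 0.01 to 0.87. No direction against BAT is given for Acot8.

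Downstream of the choline kinases, 12 genes of phosphatidylcholine and phosphatidylethanolamine synthesis were listed and 11 tested. They showed no common direction against BAT, with 3 higher and 3 lower in iWAT and 6 higher and 5 lower in eWAT. Of all genes tested, 38.1% were higher and 37.2% lower in iWAT, and 41.1% higher and 41.4% lower in eWAT. Without TMM scaling, 8 and 7 were higher in the white depot and 1 and 3 in BAT. Pcyt2, of the ethanolamine branch, was at 13.6 ± 3.01 RPKM in BAT and 5.64 ± 0.591 RPKM in iWAT (-1.88 ± 0.14, adjusted p = 7.5e-09). Slc44a3, of the choline transporter-like family, was higher in iWAT (1.52 ± 0.25) and in BAT (-2.25 ± 0.22 for eWAT over BAT) than in eWAT. Chpt1, choline phosphotransferase, was at 117 ± 15.2, 86.0 ± 13.1 and 38.2 ± 16.6 RPKM in BAT, iWAT and eWAT. Pcyt1b, which makes CDP-choline, was higher in eWAT than in BAT (3.22 ± 0.24), at 0.406 and 0.0282 RPKM. Chat, the choline acetyltransferase that belongs to the protein family of the carnitine enzymes, had 0 reads in all 18 samples.

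The genes whose RPKM over the 18 samples was most like that of Cpt1b, by Pearson's r of log2(RPKM + 0.1) among 14156 other genes with a mean of at least 1 RPKM, were Ucp1 (0.9981), Slc25a48 (0.9979), Idh3g (0.9973), Acadvl (0.9970) and Uqcrc2 (0.9969). Ucp1, the uncoupling protein, was at 1858 RPKM in BAT, and Acadvl, the first dehydrogenase of long-chain β-oxidation, at 427 RPKM. For the Chkb row they were BC090627 (0.9998), which overlaps it, and Gpd2 (0.9970), Cox7a1 (0.9969), AK045690 (0.9967) and Sdhb (0.9965). The samples form 3 clusters by tissue and share their libraries, so these values describe the order of the tissues.

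Promoter sequences from RefSeq (GRCm38.p6) were given for 6 of the 8 members, those of Cpt1b and Crat not being used here. The 250 bases before the start are shown for Cpt1a, which was high in white depots, for Cpt2, which was high in BAT, and for Chkb. Capitals mark the nuclear receptor half-site AGGTCA, the CCAAT box CCAAT and the GC box GGGCGG, on either strand. The Cpt1a window is chr19:3323051-3323300 (plus strand), the Cpt2 window chr4:107923590-107923839 (minus strand) and the Chkb window chr15:89429928-89430177 (minus strand).
Cpt1a: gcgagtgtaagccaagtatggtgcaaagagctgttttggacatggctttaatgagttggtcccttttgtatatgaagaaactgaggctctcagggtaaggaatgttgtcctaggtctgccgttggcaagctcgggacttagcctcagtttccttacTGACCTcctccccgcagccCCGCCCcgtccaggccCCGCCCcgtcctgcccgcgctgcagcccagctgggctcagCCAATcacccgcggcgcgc
Cpt2: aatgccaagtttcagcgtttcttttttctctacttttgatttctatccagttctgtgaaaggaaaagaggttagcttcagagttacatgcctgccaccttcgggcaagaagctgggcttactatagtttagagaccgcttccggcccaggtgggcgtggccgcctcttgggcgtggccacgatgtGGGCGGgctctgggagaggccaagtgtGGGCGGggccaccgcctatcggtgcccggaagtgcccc
Chkb: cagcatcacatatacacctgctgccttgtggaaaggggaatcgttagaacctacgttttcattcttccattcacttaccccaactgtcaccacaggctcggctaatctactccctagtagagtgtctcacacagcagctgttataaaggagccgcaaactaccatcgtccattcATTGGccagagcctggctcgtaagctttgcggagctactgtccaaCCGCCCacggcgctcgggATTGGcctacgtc

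The GC box stood in all 6 windows, and in 32.7% of 32851 promoters of this length. CCAAT stood in 5, all but Cpt2, and in 33.8% of all promoters. AGGTCA was found in Cpt1a (94 bases before the start) and Cpt1c (146 bases before), beside 14.0% of all promoters. The longer element TCAAGGTCA, which holds AGGTCA, and the E box CACGTG were in none of the 6, and in 0.387% and 6.02% of all promoters. These matches are descriptions of the letters in these windows.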

How the data were processed

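RNA was sequenced from 6 samples each of iWAT adipocytes, eWAT adipocytes and whole BAT of HFD mice, with libraries made with a NEBNext Ultra kit. The submitters' processing notes name cutadapt 1.16, HISAT2 2.1.0 and the mm9 genome. The counting program, its use of strand and the annotation are not given in the sources used here. For each transcript row the authors deposited a read count, the RPKM computed from it and a normalised signal of its highest exon. Count, length and RPKM gave 1 total per sample, so the deposited RPKM holds no other normalization.

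Tissue labels gave the groups. The members and lists were chosen with earlier results of these data known. Counts were compared with edgeR 4.0.16 (glmQLFit and glmQLFTest, TMM, two-sided, R 4.3.3) on the 12 samples of each pair of tissues, for symbols with a mean count of at least 10. Adjusted p-values are Benjamini-Hochberg values across all symbols of a comparison, with a threshold of 0.05. The script was tested on simulated data. Each SE was derived from the quasi-likelihood F statistic. Shares, ratios and relations within a tissue were tested by exact permutation, two-sided, on RPKM (shares and ratios) or log2(RPKM + 0.1). The remainder of Chkb is its row count less that of Cpt1b. Exons came from GENCODE vM1 and sequences from NCBIM37 and RefSeq. The labels do not say that samples are separate mice, so p-values measure the spread between these samples. Reads carry no molecular identifiers, so the counts are of reads and not of molecules. Files of the same tissue differed by more than counting noise, with a lowest chi-square of 15.7 per degree of freedom over genes.

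Genes named are the 8 members, rows within 50 kb of the locus or overlapping a member, the 3 largest changes past the threshold in each list, the 5 genes most like Cpt1b and Chkb, and cell type markers. A gene of these lists is not reported here. Slc22a5, Bbox1, Chat and list genes at levels in other comparisons were named after their values were seen. Alternatives were no TMM scaling, DESeq2 1.42.0, limma 3.58.1 on log2(RPKM + 0.1) or log2(RPKM + 1) for symbols with a mean RPKM of at least 0.1, no count filter, all 18 samples in 1 fit, lane, a replicate block, each sample left out, medians, 0.1 RPKM added before ratios, TMM-scaled RPKM, and, added after the data were seen, the subtractions of Cpt1b reads and an unblocked fit on samples whose numbers both tissues share. Other tools were scipy 1.17.1, pandas 2.3.3, matplotlib 3.10.9 and numpy 2.4.6 under Python 3.11.15.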

Additional observations from a re-analysis of the deposited data

How the results depend on the processing

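Cpt1a, Cpt1b, Cpt2, Crat and Chka kept their direction and side of the threshold in all 3 comparisons under every alternative run. Counts of genes and of members called moved by less than 1.5 times, and the 9 tests of shares and ratios kept direction and call. Without TMM scaling, 81.8% of calls were higher in iWAT than in BAT and 76.1% higher in eWAT than in BAT, beside 50.6% and 49.8% with it, and limma on log2(RPKM + 0.1) gave 74.3% and 67.6%. Crot and Cpt1c then changed sign. For iWAT over BAT, Crot was 0.58 without TMM, 0.33 with limma and a pseudocount of 0.1 and 0.29 with a pseudocount of 1, and Cpt1c was 0.56, 0.15 and 0.05. For eWAT over BAT without TMM, Crot was 0.24 and Cpt1c 0.08. Crot for iWAT over BAT also missed the threshold with no count filter (-0.17, adjusted p = 0.160), and Cpt1c for iWAT over eWAT passed it without iWAT number 3 (0.70, adjusted p = 0.035). Chkb for iWAT over eWAT was -0.02 after subtraction of Cpt1b reads, -0.11 with no TMM scaling as well, and 0.00 when only the shared bases were subtracted.

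Relations over 6 samples moved most. Without the 2 farthest samples, where 4 samples remain, Chkb against Cpt1b in iWAT was -0.0516, Cpt1b against muscle markers -0.522 in iWAT, 0.231 in eWAT and 0.290 in BAT, and Cpt1a against macrophage markers 0.624 in eWAT. On TMM-scaled values, Chkb against Cpt1b in iWAT was 0.822 and Cpt1b against muscle markers in BAT -0.615. With the remainder in place of the Chkb row, its relation to Cpt1b in BAT was 0.679, which did not pass.

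The labels do not say what the numbers in the titles mark. Deviations of same-numbered samples from their tissue means correlated between -0.228 and 0.399, -0.152 and 0.0972, and -0.0259 and 0.0823 in the 3 comparisons, so the samples were not taken as paired, and 1 of 6, 1 of 4 and 2 of 4 numbers correlated best with their own. With a replicate block, 12836, 12486 and 15146 genes were called, beside 13454, 14864 and 16561, and Crot for iWAT over BAT no longer passed (-0.30, adjusted p = 0.130). The block on iWAT or eWAT against BAT uses 4 shared numbers, and without it the same samples gave -0.30 (adjusted p = 0.093) for Crot.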

Other observations

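The arrangement at Chkb and Cpt1b recurs in the files. Of 52093 rows, taken as 1 per symbol, 830 hold the whole row of another symbol on the same strand and share an end with it. Of these, 293 had at least 100 reads in every BAT sample, and in 60 the value of the highest exon equalled that of the held row in all 6 BAT samples. Chkb and BC090627, which both hold Cpt1b, are among the 60. Many of the others belong to the gamma protocadherin cluster, whose rows end on shared exons. The list also has the pairs Gstp2/Gstp1 with Gstp1, Cycs with Cycs/Gm10053, and Hbb-b1 with Hbb-b2, which were named after the list was seen. The share of their reads that comes from the held row was not computed here.

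The 27 groups of 6 samples formed by the 8 genes, the remainder of Chkb and the 3 tissues held 0 values set apart by Dixon's test, where chance would give about 1.35.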
